A study of Mus musculus with 12 samples.

Results

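The 10 genes described here encode the 5 NF-kB subunits (Rela, Nfkb1, Rel, Nfkb2 and Relb) and 5 proteins that act in feedback on them (Nfkbia, Nfkbie, Nfkbiz, Tnfaip3 and Tnip1). They were taken by name from a table of 55401 mouse genes, and all 10 were found in it. Their level in MLL-AF9 leukemia cells was compared between 3 kinds of host mouse.

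NF-kB proteins act as dimers that wait in the cytoplasm, held by inhibitors of the IkB family, until signals from receptors for TNF, IL-1 or bacterial products activate the IKK kinases. IKK marks the inhibitor for destruction, the dimer enters the nucleus, and among the genes it switches on are those of its own inhibitors, so that the response limits itself. In myeloid cells this pathway drives inflammatory cytokines and survival genes, and much of its control lies in protein stability and location, which messenger RNA levels do not measure.

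MLL-AF9 is a fusion oncogene of acute myeloid leukemia, and it was introduced into mouse bone marrow progenitors together with GFP. The resulting leukemia had been passed through more than 10 serial transplantations in non-irradiated recipients, so all groups carried the same serially passaged leukemia, and the labels list no drug treatment. Recipients were female and 8 to 12 weeks old: WT mice (C57BL/6, with a normal immune system), Rag2-/- mice (C57BL/6J-Rag2em3Lutzy/J, which lack mature T and B cells but keep NK cells) and NSG mice (which lack T, B and NK cells). The leukemia cells were recovered from host bone marrow by sorting for GFP, and poly(A)-selected RNA was sequenced from 4 labelled biological replicates per host, 12 libraries in all. According to the paper the hosts were moribund when the cells were collected. It reports an earlier onset of AML in NSG and a slower progression in Rag2-/- than in WT. The time spent in the host may thus differ between groups, and its part was not tested. The NSG strain differs from the other hosts in more than its lymphocytes, the comparison rests on 1 serially passaged leukemia, and the MLL-AF9 transgene was driven by a retroviral vector. Levels are in transcripts per 1000000 (TPM), which are scaled by gene length and can be compared between genes.

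The depth read back from the TPM steps was 16.01 to 42.8 M reads (M, 1000000 reads) per library, with medians of 16.9 M in WT, 28.4 M in Rag2-/- and 20.1 M in NSG. Between 65.8% and 68.5% of counts under 20 reads were even, so a read pair may have entered as 2 reads, and the number of fragments would then be lower. All 10 genes of the MLL-AF9 leukemia list, Hoxa9 and Meis1 among them, were above 0 in all 12 libraries. The 14 T and NK cell markers summed to 5.68 to 9.98 TPM in WT, 3.91 to 10.96 TPM in Rag2-/- and 3.40 to 9.27 TPM in NSG. Cd3e and Trac were at 0 in all 12 libraries, whereas the NK cell gene Ncr1 averaged 0 TPM in WT and NSG and 0.359 TPM in Rag2-/-. In WT, Rag2-/- and NSG, Gzma averaged 0, 1.49 and 0.416 TPM and Klrb1c 0.410, 0.927 and 0.272 TPM. Nkg7, the most abundant of the 14, went the other way, at 5.93, 3.49 and 5.19 TPM. Klrk1 averaged 0.158, 0.165 and 0.220 TPM and was highest in NSG. Gzmb averaged 0, 0.169 and 0 TPM and Prf1 0.0409, 0.124 and 0 TPM. Gzmb and Prf1 were thus highest in Rag2-/-, as were Ncr1, Gzma and Klrb1c, whereas Nkg7 and Klrk1 were not. The 8 B and plasma cell markers summed to 181 to 233 TPM in WT, 140 to 211 TPM in Rag2-/- and 125 to 222 TPM in NSG. Most of that sum was Ighm (122 to 215 TPM), Ms4a1 was at 0 in all 12 libraries, and Igkc averaged 9.38 TPM in WT, 0.0738 TPM in Rag2-/- and 0.169 TPM in NSG.

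The 14 genes of the neutrophil list summed to 14281 to 15744 TPM in WT, 13880 to 15391 TPM in Rag2-/- and 12622 to 18220 TPM in NSG, and its parts went in opposite directions. The primary granule genes had lower means in Rag2-/- than in WT, with Mpo at 145 against 553 TPM, Prtn3 at 2552 against 3313 TPM and Elane at 9789 against 10872 TPM. The other 11 genes, a split made after the values were seen, summed to 442 to 575 TPM in WT and 475 to 593 TPM in NSG. In Rag2-/- these 11 genes summed to 2358, 2156 and 2220 TPM in replicates 1 to 3 and to 912 TPM in replicate 4, so Rag2-/- replicate 4 lay nearer to the other hosts. The 12 genes of the monocyte and macrophage list summed to 1171 to 1326 TPM in WT, 882 to 1248 TPM in Rag2-/- and 927 to 1367 TPM in NSG. These genes went in different directions as well. In WT, Rag2-/- and NSG, Ly6c2 averaged 601, 332 and 516 TPM, C1qa 2.01, 6.88 and 1.46 TPM, and Ccr2 383, 381 and 331 TPM. The part of these marker genes in the results was not tested. In such bulk libraries more cells of a type and more RNA per cell cannot be told apart.

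Many inhibitors of NF-kB carry the binding motif of NF-kB in their own promoters, and the sites are shown here because the feedback loop runs through them. Promoter sequences (250 bases before to 50 bases after the start, RefSeq, GRCm38.p6) were at hand for 7 of the 10 genes, namely Nfkb2, Rela, Rel, Nfkbia, Nfkbie, Tnfaip3 and Tnip1, and those of Nfkb1, Relb and Nfkbiz were not analysed here. The kB consensus, searched on both strands, was found in 6 of these 7 genes, all but Rela, against 5.14% of the 27025 genes in the promoter table. Among 27 target genes of NF-kB, 12 (44.4%) held it. 1 site is shown per gene, although Tnfaip3 and Nfkb2 held further ones elsewhere in their promoters. In the following sites each motif is in capitals with 6 bases on either side, written 5′ to 3′ along the strand that carries it.
Nfkbia (chr12:55492661-55492682, plus strand, opposite to the gene): ggcgcgGGGAATTTCCaagcca
Tnfaip3 (chr10:19015407-19015428, plus strand, opposite to the gene): caacagGGGGATTTCCgatgga
Nfkbie (chr17:45555588-45555609, plus strand, as the gene): caaacaGGGGGATTCCggaggg
Tnip1 (chr11:54962982-54963003, minus strand, as the gene): tcatggGGGAATTCCCctcctg
Rel (chr11:23771046-23771067, minus strand, as the gene): agcagcGGGAAATCCCcccccc
Nfkb2 (chr19:46304692-46304713, plus strand, as the gene): cgtcacGGGAATTCCCcccctc
The motifs lay close to the start, from 29 to 20 bases before it in Nfkbia and from 12 to 3 bases before it in Tnfaip3. In Nfkbie the distance was 106 to 97 bases, in Tnip1 57 to 48, in Rel 92 to 83 and in Nfkb2 39 to 30. All distances are from RefSeq starts. Nfkb2 had 3 promoters and Tnfaip3 2, and their sites shown here lie inside the GENCODE gene positions given below. The sites shown for Tnip1 and Nfkb2 are palindromes, and that of Rel also fits the consensus on the other strand. In these genes both strands match at the same place, and the strand of the gene is given by convention. Each of them matched again, shifted by 1 base, on the other strand. Tnip1 also held a match from 58 to 49 bases before the start on its own strand. A match describes the letters only, since no binding was measured.

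All 10 genes were expressed in all 12 libraries, and the order of their levels was nearly the same in each host. By mean TPM over the 12 libraries, Nfkbia stood first at 229 TPM, followed by Rela (121 TPM), Tnip1 (86.5 TPM), Nfkb1 (66.6 TPM) and Nfkbie (29.8 TPM). Below them came Rel (17.5 TPM), Nfkbiz (16.1 TPM), Nfkb2 (15.2 TPM), Tnfaip3 (8.98 TPM) and Relb (3.08 TPM). Each gene was above the next in 12 of 12 libraries, except that Rel was above Nfkbiz in 9 and Nfkbiz above Nfkb2 in 6, so that the order among Rel, Nfkbiz and Nfkb2 was not fixed.

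**Figure D1:**
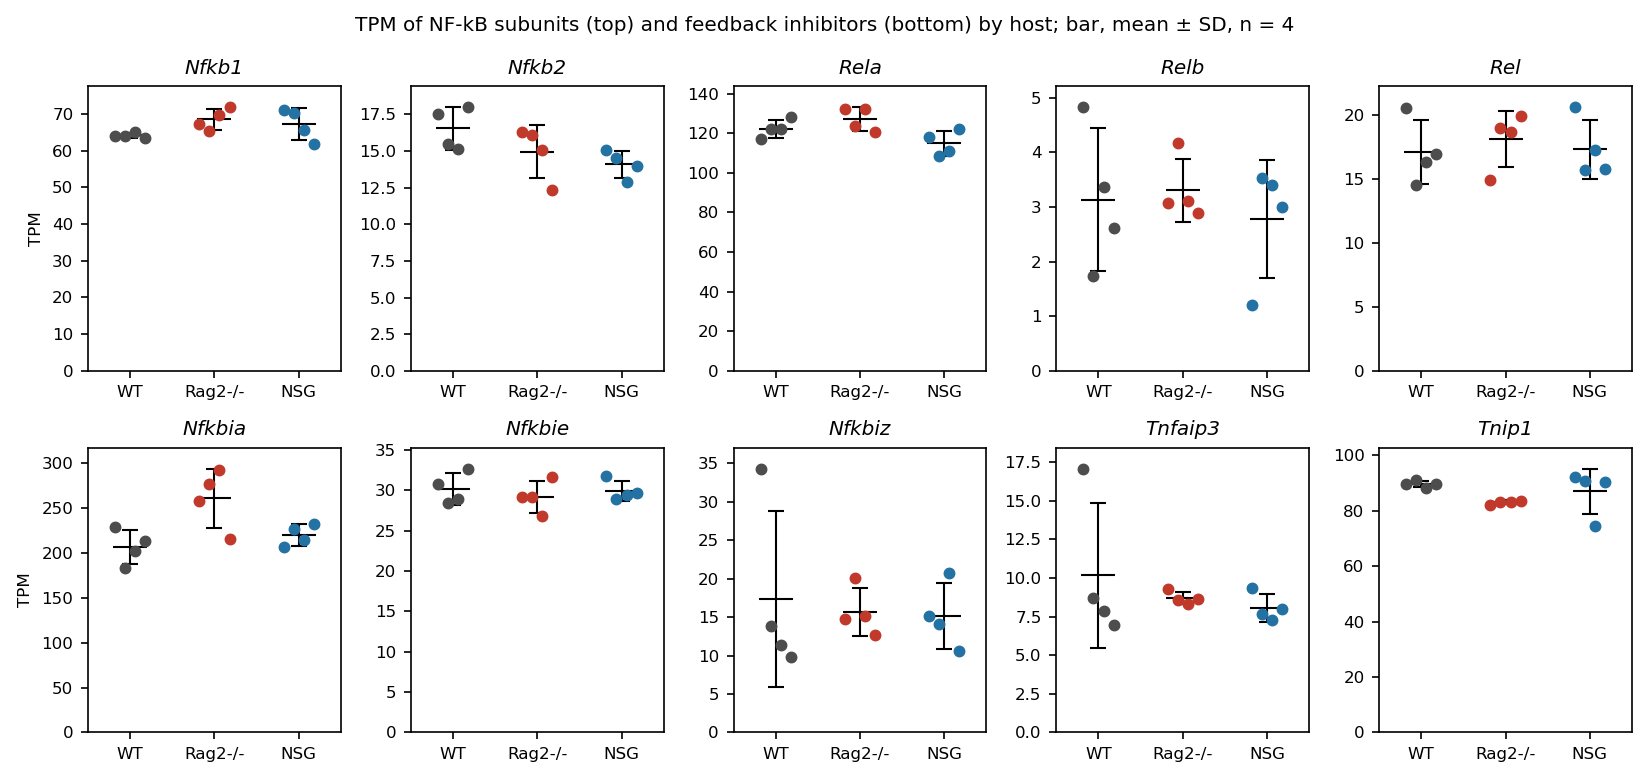
TPM (vertical axes, each from 0) of the 5 subunits (top) and the 5 feedback inhibitors (bottom) in WT, Rag2-/- and NSG hosts, with 1 point per library, left to right replicates 1 to 4, and bars for the mean and SD (n = 4). The hosts overlap for most genes, Nfkbia is highest in 3 of the 4 Rag2-/- libraries, and WT replicate 1 stands above all other libraries for Relb, Nfkbiz and Tnfaip3.

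Among the subunits, Rela, the p65 protein whose activation domain drives most NF-kB transcription, was the most abundant. It was at 117, 122, 122 and 128 TPM in WT replicates 1 to 4, at 132, 123, 132 and 121 TPM in Rag2-/- and at 118, 108, 111 and 122 TPM in NSG. The 2 highest libraries were from Rag2-/- and the 2 lowest from NSG, but the hosts overlapped. Rela made up 54.2% of the summed subunit TPM on average, between 51.0% and 56.6% in single libraries. Its log2 fold change was 0.14 ± 0.053 (SE) in Rag2-/- against NSG, with a 95% interval of 0.03 to 0.26 and an adjusted p of 0.272 (limma, Benjamini-Hochberg over 15026 genes), and 0.06 in Rag2-/- against WT.

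Nfkb1, whose p105 product is cut to the p50 partner of p65, was the steadiest gene in WT, with 64.0, 64.1, 65.0 and 63.5 TPM. It was at 67.1, 65.3, 69.7 and 71.8 TPM in Rag2-/- and at 71.1, 70.2, 65.5 and 61.9 TPM in NSG. Every Rag2-/- library was above every WT library, the narrowest gap being 65.3 against 65.0 TPM, while the NSG libraries spanned both. The difference amounted to a log2 fold change of 0.09 ± 0.054 (SE), interval -0.02 to 0.21, and an adjusted p of 0.354. Libraries of Rag2-/- and WT did not overlap for 16.9% of all genes tested.

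Rel encodes c-Rel, a subunit of lymphoid and myeloid cells that also has an activation domain. Its level was 20.5, 14.5, 16.3 and 16.9 TPM in WT, 14.9, 19.0, 18.7 and 19.9 TPM in Rag2-/- and 20.6, 15.7, 17.3 and 15.7 TPM in NSG. Each host had libraries near the bottom and near the top of this range, and the log2 fold changes were 0.08, 0.06 and 0.02 in Rag2-/- against WT, Rag2-/- against NSG and NSG against WT.

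Nfkb2 and Relb form the non-canonical arm, in which the p100 precursor is cut to p52 and pairs with RelB. Nfkb2 was at 17.5, 15.4, 15.2 and 17.98 TPM in WT, 16.3, 16.1, 15.1 and 12.3 TPM in Rag2-/- and 15.0, 14.5, 12.9 and 13.99 TPM in NSG. All NSG libraries were below all WT libraries, by 15.0 against 15.2 TPM at the closest, and Rag2-/- replicate 4 was the lowest of the 12. For NSG against WT the log2 fold change of Nfkb2 was -0.21 ± 0.0995 (SE), interval -0.43 to 0.0030, adjusted p 0.549, and 4.59% of all genes tested did not overlap between these hosts. Nfkb2 shares its position on the genome with a long noncoding RNA on the opposite strand (8.30 to 11.98 TPM) and with Psd, also on the opposite strand (0.871 to 2.46 TPM), and whether reads were counted by strand is not given in the sources used here.

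Relb was the lowest of the 10, at 4.83, 1.73, 3.36 and 2.61 TPM in WT, 3.07, 4.16, 3.10 and 2.89 TPM in Rag2-/- and 1.204, 3.54, 3.41 and 2.99 TPM in NSG. These values correspond to 26 to 135 recovered reads per library, or fewer fragments if pairs were counted as 2, and the highest and lowest WT libraries were farther apart than any host means. Its intervals were wide, reaching from -0.71 to 0.82 on the log2 scale over the 3 comparisons. Nfkb2 and Relb together contributed 8.80% of the summed subunit TPM in WT, 7.87% in Rag2-/- and 7.82% in NSG.

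The summed level of the 5 subunits was 223 ± 4.64 TPM in WT, 232 ± 5.36 TPM in Rag2-/- and 216 ± 6.98 TPM in NSG (SD, n = 4).

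Nfkbia, which encodes IkBα, the inhibitor that is degraded first and made again by NF-kB itself, was the most abundant member and the one that differed most between hosts. It was at 229, 183, 202 and 213 TPM in WT replicates 1 to 4. In Rag2-/- it was at 258, 277, 293 and 216 TPM, and in NSG at 207, 227, 215 and 233 TPM. Rag2-/- replicates 1 to 3 were above all 8 libraries of the other hosts, whereas replicate 4 was below WT replicate 1 and below 2 NSG libraries.

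The means of Nfkbia were 207 ± 19.4 TPM in WT, 261 ± 33.2 TPM in Rag2-/- and 220 ± 11.8 TPM in NSG (SD, n = 4). Rag2-/- exceeded WT by a log2 fold change of 0.33 ± 0.092 (SE), interval 0.13 to 0.53, and by limma with Benjamini-Hochberg adjustment over all genes the adjusted p was 0.0716. Against NSG the log2 fold change was 0.24, interval 0.04 to 0.44, adjusted p 0.305, and both comparisons use the same 4 Rag2-/- libraries. Without Rag2-/- replicate 4 the difference from WT was 0.42 with an adjusted p of 0.0206, and without any other single library the adjusted p lay between 0.0675 and 0.210. The sum of the 11 neutrophil genes outside the primary granule was also highest in Rag2-/- replicates 1 to 3 and lower in replicate 4. All of the 11 but Csf3r had a higher mean in Rag2-/- than in WT, S100a9 for example at 474 against 24.9 TPM and Ngp at 208 against 16.4 TPM. Csf3r was at a mean of 235 TPM in Rag2-/- and 242 TPM in WT. The sum of the whole neutrophil list, most of it Elane and Prtn3, overlapped between hosts. The part of these genes in the Nfkbia values was not tested.

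Nfkbie encodes IkBε, an inhibitor that acts later in the response. It was even across hosts, at 30.8, 28.4, 28.9 and 32.7 TPM in WT, 29.1, 29.1, 26.8 and 31.6 TPM in Rag2-/- and 31.7, 28.9, 29.5 and 29.7 TPM in NSG. The hosts overlapped throughout, and the 3 intervals stayed between -0.20 and 0.14 on the log2 scale.

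Nfkbiz encodes IkBζ, a nuclear member of the IkB family that can also help to switch on secondary response genes such as Lcn2. It was at 34.3, 13.9, 11.4 and 9.86 TPM in WT, 14.7, 20.1, 15.1 and 12.7 TPM in Rag2-/- and 15.1, 14.1, 20.8 and 10.6 TPM in NSG. WT held both the highest library, replicate 1, and the lowest, replicate 4. The log2 fold change of Nfkbiz in Rag2-/- against WT was 0.01 (interval -0.68 to 0.71), and it became 0.39 without WT replicate 1, with an adjusted p of 0.346.

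Tnfaip3 encodes A20, a ubiquitin-editing enzyme that switches off signalling upstream of IKK. Its level was 17.1, 8.72, 7.89 and 6.96 TPM in WT, 9.27, 8.56, 8.31 and 8.65 TPM in Rag2-/- and 9.38, 7.65, 7.28 and 8.01 TPM in NSG. WT replicate 1 was again the highest, and the other 11 libraries lay between 6.96 and 9.38 TPM. For Rag2-/- against WT the log2 fold change of -0.12 (interval -0.57 to 0.33) turned to 0.13 without WT replicate 1 (adjusted p 0.570).

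Tnip1 encodes ABIN1, which binds ubiquitin chains and works with A20. It was at 89.7, 91.0, 88.1 and 89.4 TPM in WT, 82.1, 83.2, 83.1 and 83.6 TPM in Rag2-/- and 91.9, 90.7, 74.6 and 90.4 TPM in NSG. All Rag2-/- libraries were below all WT libraries, and libraries of these hosts did not overlap for 16.9% of all genes tested. The spread within each of these hosts was small (SD 0.652 and 1.17 TPM), but NSG replicate 3 was lower than any of their libraries. The log2 fold change in Rag2-/- against WT was -0.11 ± 0.062 (SE), interval -0.24 to 0.03, adjusted p 0.344. Leaving out NSG replicate 3, which enters this comparison only through the shared estimate of the spread, gave an adjusted p of 0.0916.

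The summed level of the 5 inhibitors was 354 ± 33.2 TPM in WT, 398 ± 33.1 TPM in Rag2-/- and 360 ± 11.6 TPM in NSG (SD, n = 4), most of it Nfkbia and Tnip1.

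A gene was called different at an adjusted p below 0.05 and a log2 fold change beyond 0.5. By that rule 0 of the 10 genes were called in Rag2-/- against WT, where 1.47% of all 15026 genes tested were called. In Rag2-/- against NSG 0 of 10 were called against 0.213% of all genes, and in NSG against WT 0 of 10 against 0% of all genes. At an unadjusted p below 0.05 the counts were 1 of 10 (Nfkbia) in Rag2-/- against WT, 2 of 10 (Rela and Nfkbia) in Rag2-/- against NSG and 0 of 10 in NSG against WT, against 20.9%, 12.6% and 9.16% of all genes. A limma model on the recovered reads called 283, 71 and 0 genes in the 3 comparisons and again none of the 10. In an F test over the 3 hosts, 0 of 10 passed an adjusted p below 0.05, against 1.1% of all genes, and the smallest adjusted p was 0.147, for Nfkbia.

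The intervals limit how large a host difference could have been missed. For 6 genes (Nfkb1, Nfkb2, Rela, Rel, Nfkbie and Tnip1) all 3 intervals lay within 0.5 of 0 on the log2 scale. For Nfkbia they reached from -0.11 to 0.53, and for Relb, Nfkbiz (-0.74 to 0.76) and Tnfaip3 (-0.67 to 0.55) a difference past the limit could not be told from none. Counting libraries that did not overlap gave 1 gene higher (Nfkb1) and 1 lower (Tnip1) in Rag2-/- against WT, where 16.9% of all genes did not overlap. It gave none in Rag2-/- against NSG, where 6.59% of all genes did not overlap. In NSG against WT 1 was lower (Nfkb2), against 4.59% of all genes in either direction.

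**Figure D2:**
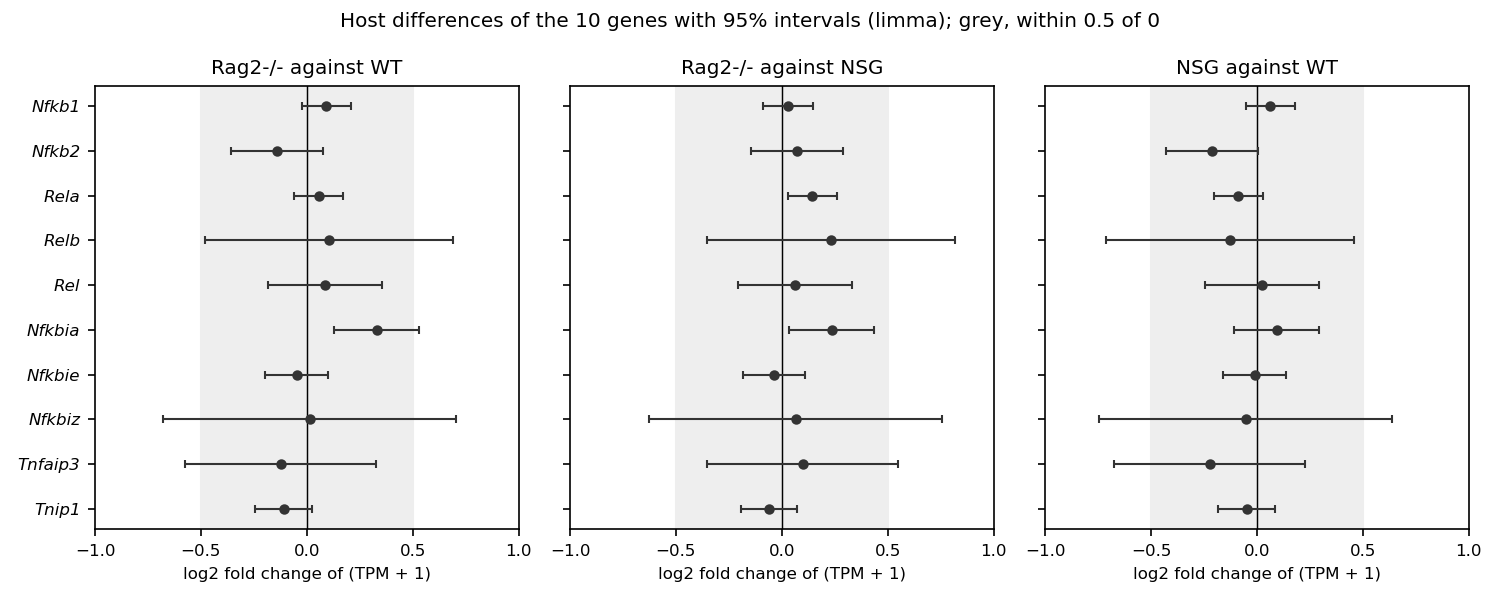
Log2 fold change of TPM + 1 (horizontal axis) of the 10 genes in the 3 host comparisons, with points for the limma estimate and bars for the 95% interval; the grey band spans 0.5 to either side of 0. The intervals of Nfkbia lie above 0 in both Rag2-/- comparisons, and that of Rela does in Rag2-/- against NSG. Those of Relb, Nfkbiz and Tnfaip3 leave the band, and that of Nfkbia reaches just past it, to 0.53, in Rag2-/- against WT.

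The other genes of the pathway were read from lists that hold 113 genes, of which 90 averaged 1 TPM or more. In Rag2-/- against WT 0 of these 90 were called. An unadjusted p below 0.05 (limma) was found for 30 of the 90, against 20.9% of all genes tested. Above 0 were 58 of the 90, against 54.5% of all genes tested. Both shares were larger among the 90 than over all genes tested. The median log2 fold change was 0.09, against 0.02 over all genes tested. In Rag2-/- against NSG 0 of 90 were called, 62 were above 0 with a median of 0.09, and 53.4% of all genes were above 0. In NSG against WT 0 of 90 were called and 46 were above 0, with 51.5% of all genes.

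Receptors and ligands had the highest medians in Rag2-/- against WT. Among 10 receptors tested the median was 0.16, and 3 had libraries that did not overlap, all higher in Rag2-/-, against 16.9% of all genes in either direction. Tlr2, a receptor for bacterial lipoproteins, was at 40.9, 37.4, 39.2 and 40.4 TPM in WT, 48.0, 60.2, 64.3 and 51.7 TPM in Rag2-/- and 41.4, 36.9, 44.4 and 37.5 TPM in NSG. All Rag2-/- libraries were above all others, and the adjusted p was 0.0205 with a log2 fold change of 0.49, just under the limit of 0.5. Without WT replicate 1, Rag2-/- replicate 1 or Rag2-/- replicate 4, Tlr2 passed the limit, at 0.50, 0.56 and 0.52. Tlr4, the receptor for lipopolysaccharide, had 74.4 ± 7.05 TPM in WT, 89.4 ± 3.25 TPM in Rag2-/- and 73.2 ± 3.96 TPM in NSG, and an adjusted p of 0.0545 against WT. The abundant receptors Tnfrsf1a, for TNF, and Ltbr, for lymphotoxin, had log2 fold changes of 0.08 and 0.15.

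Of 6 ligands tested, 5 were above 0 and the median was 0.32. Tnf, the prototype activator and itself a target, was at 21.6, 13.2, 13.9 and 15.0 TPM in WT, 20.8, 23.6, 17.6 and 21.8 TPM in Rag2-/- and 14.8, 14.5, 16.7 and 17.1 TPM in NSG. WT replicate 1 fell among the Rag2-/- libraries, and without it the log2 fold change rose from 0.39 (adjusted p 0.136) to 0.54 (adjusted p 0.0392). Tnfsf14, also called LIGHT, had 44.9 ± 4.90 TPM in WT and 57.2 ± 4.32 TPM in Rag2-/- (log2 fold change 0.35, adjusted p 0.0502). Ltb, lymphotoxin beta, had 0.607 ± 0.549 TPM in WT and 2.12 ± 0.516 TPM in Rag2-/-, with an adjusted p of 0.114. Its log2 fold change of 1.01 was the highest among the ligands tested. The level was low, from 0 to 1.10 TPM in WT and from 1.45 to 2.70 TPM in Rag2-/-, and at 0 TPM in WT replicate 4 and NSG replicate 1.

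In the cascade from receptor to IkB, 14 of 16 genes of the IKK complex and its kinases were above 0, with a median of 0.12, and 5 did not overlap, all higher in Rag2-/-, against 16.9% of all genes in either direction. Tank, a scaffold of the kinase Tbk1, had 50.9 ± 1.70 TPM in WT, 64.0 ± 6.83 TPM in Rag2-/- and 57.6 ± 6.40 TPM in NSG. Tbk1 itself and Tab2, which links ubiquitin chains to the kinase TAK1, had log2 fold changes of 0.25 and 0.23, and the adjusted p of these genes lay between 0.0661 and 0.0763. The abundant kinase Irak1 was at 160 ± 5.79 TPM in WT and 172 ± 7.53 TPM in Rag2-/-.

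Of 16 adaptors and ubiquitin ligases, 10 were above 0. Birc3, a ubiquitin ligase that acts at TNF receptors, was at 34.3, 35.4, 34.0 and 38.9 TPM in WT, 41.9, 44.9, 49.3 and 42.5 TPM in Rag2-/- and 42.1, 40.8, 40.4 and 37.4 TPM in NSG. Its Rag2-/- libraries were all above the WT libraries and overlapped the NSG ones, and its adjusted p against WT was 0.0327 at a log2 fold change of 0.32, so that Tlr2 and Birc3 were the 2 genes of the 90 with an adjusted p below 0.05 (2.8% of all genes). Myd88, the adaptor of most Toll-like receptors, had 139 ± 5.94 TPM in WT, 149 ± 4.41 TPM in Rag2-/- and 130 ± 2.66 TPM in NSG, and its Rag2-/- libraries lay above all others. Tirap, which brings Myd88 to the membrane, had a log2 fold change of 0.28 (adjusted p 0.0506), and Card9, the adaptor of C-type lectin receptors, of 0.06.

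Of 19 other IkB proteins and negative regulators, 12 were above 0, with a median of 0.07. Nfkbib, which encodes IkBβ, was at 40.5, 39.5, 35.7 and 38.2 TPM in WT, 50.8, 47.3, 46.7 and 47.6 TPM in Rag2-/- and 46.4, 51.1, 41.6 and 38.0 TPM in NSG. All its Rag2-/- libraries were above all WT libraries, at a log2 fold change of 0.31 and an adjusted p of 0.0593. Bcl3, a nuclear IkB protein, had 77.9 ± 6.23 TPM in WT, 96.1 ± 14.9 TPM in Rag2-/- and 65.9 ± 10.5 TPM in NSG, and its log2 fold change in Rag2-/- against NSG was 0.54 with an adjusted p of 0.102. Without Rag2-/- replicate 4 that value became 0.65 (adjusted p 0.0249). Irak3, which dampens Toll-like receptor signalling, had a log2 fold change of 0.34 against WT (adjusted p 0.0907), and Zfp36, which destabilises Tnf messenger RNA, of -0.17 (adjusted p 0.642).

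Among the lists of other pathway genes, target genes of NF-kB were the list whose median lay below 0. Of 23 tested, 9 were above 0 in Rag2-/- against WT with a median of -0.10, 6 had an unadjusted p below 0.05 (20.9% of all genes), and 2 did not overlap, both lower in Rag2-/- (16.9% of all genes in either direction). The first of these 2 shares was somewhat above that of all genes, and the second was below it. Their median against NSG was -0.02, and it turned to 0.02 without Rag2-/- replicate 3 and to 0.01 without NSG replicate 3. Ccl3, a chemokine and the most abundant of them, had 402 ± 42.6 TPM in WT, 485 ± 70.2 TPM in Rag2-/- and 413 ± 44.8 TPM in NSG. Marcksl1 had 262 ± 10.5 TPM in WT and 224 ± 20.5 TPM in Rag2-/- (log2 fold change -0.23, adjusted p 0.0762), and Tap1, a peptide transporter of antigen presentation, had 146 ± 6.83, 121 ± 15.4 and 156 ± 14.8 TPM in WT, Rag2-/- and NSG.

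**Figure D3:**
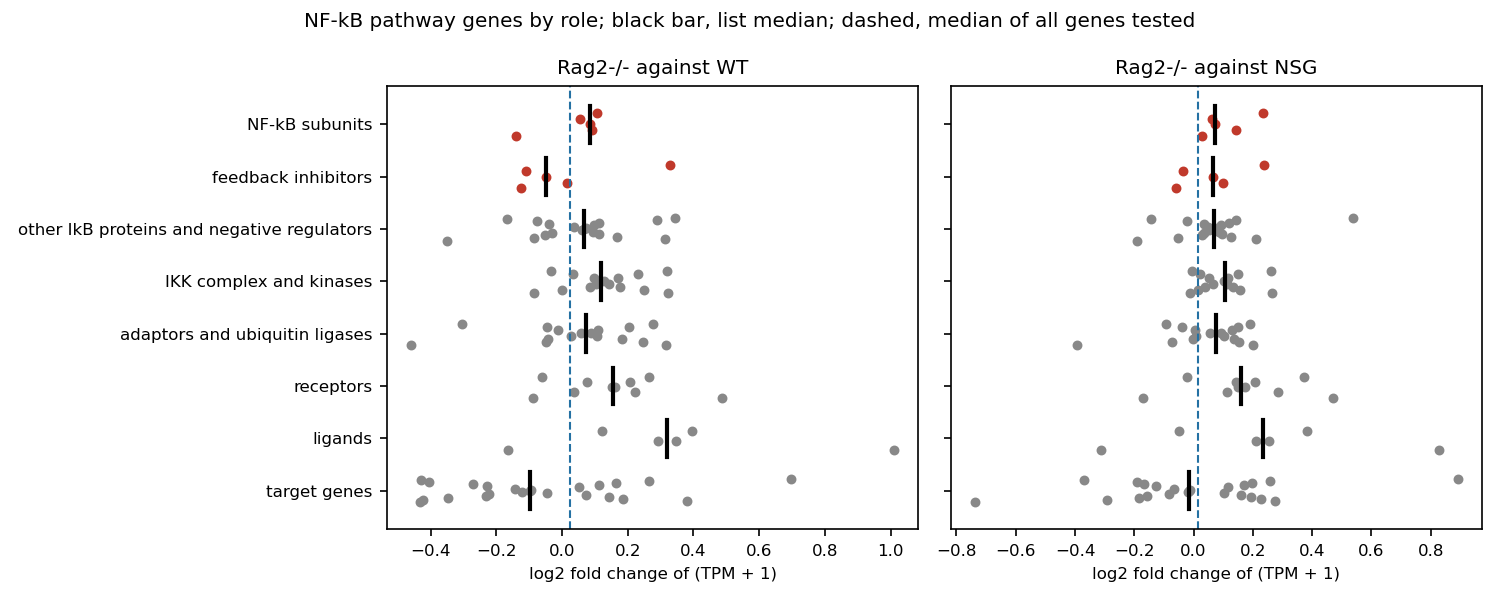
Log2 fold change of TPM + 1 (horizontal axis) of every gene tested in each list of the pathway, in Rag2-/- against WT (left) and Rag2-/- against NSG (right); red points are the 10 genes, grey points the other pathway genes, black bars the list medians, and the dashed line the median of all genes tested. Ligands and receptors have the highest medians and target genes the lowest, while the 10 genes stay between -0.14 and 0.33.

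The largest spreads among the 10 genes were within WT, and for Nfkbiz and Tnfaip3 they came from replicate 1. The coefficient of variation in WT was 65.8% for Nfkbiz, 45.9% for Tnfaip3 and 41.8% for Relb, and 1.00% for Nfkb1. For Relb the WT libraries ran from 1.73 TPM in replicate 2 to 4.83 TPM in replicate 1, and the coefficient was 38.8% in NSG. WT replicate 1 was the highest of the 12 libraries for 3 of the 10 genes (Relb, Nfkbiz and Tnfaip3), for 6 of the 23 target genes (26.1%) and for 7.33% of all genes tested. Compared with the median of the other 11 libraries it was 2.44-fold higher for Nfkbiz, 2.06-fold for Tnfaip3 and 1.57-fold for Relb. The mean Z score of the 10 genes was 0.94 in this library and between -0.56 and 0.34 in the others.

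**Figure D4:**
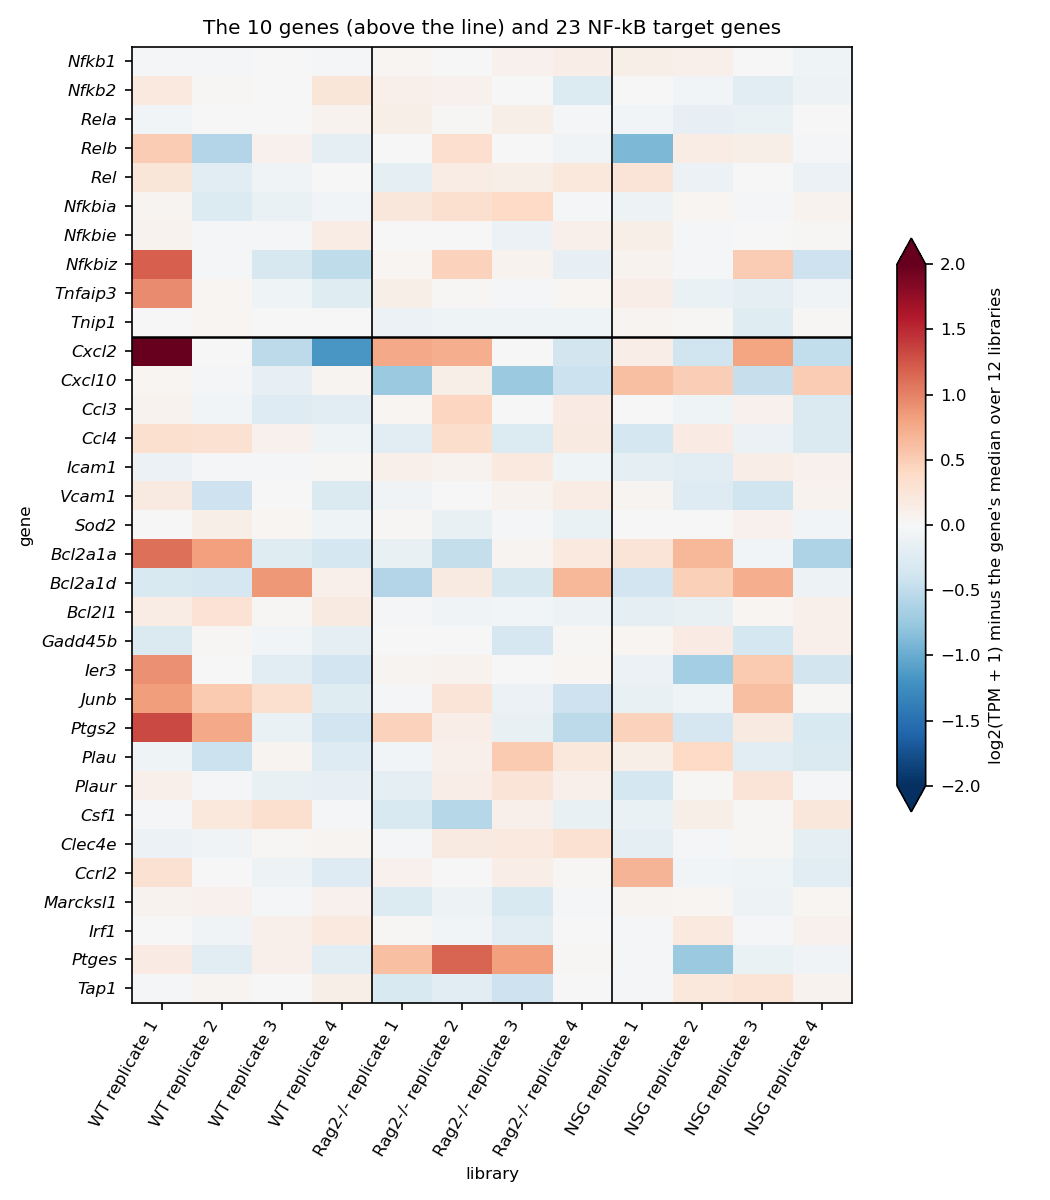
Log2(TPM + 1) minus the median of each gene over the 12 libraries (colour, limited to 2 on either side of 0) for the 10 genes (above the line) and 23 target genes (below it), with 1 column per library and lines between hosts. WT replicate 1 is high for Nfkbiz, Tnfaip3 and several target genes, and no host is high or low throughout.

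The highest Pearson correlation between any pair over the 12 libraries was that of Nfkbiz with Tnfaip3, r = 0.76 (Spearman 0.41), and it was 0.23 without WT replicate 1. Nfkbia and Rela correlated at 0.43, and the lowest value was -0.42, for Nfkb1 with Nfkb2. The libraries share hosts and scaling, so these values are descriptions. Among the 9435 genes that averaged 10 TPM or more, those whose profile was most like the mean Z score of the 10 over the 12 libraries were Fam98c (r = 0.85), Creb1 (0.83), Aoah (0.82), Dgkg (0.82) and Rab11a (0.82).

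The genes lie on 8 chromosomes of GRCm38 (GENCODE M21). Rela (chr19:5637483-5648130) and Nfkb2 (chr19:46304320-46312385) share chromosome 19, and Rel (chr11:23736847-23770970) and Tnip1 (chr11:54910785-54962917) share chromosome 11. Nfkb1 is at chr3:135584655-135691547, Relb at chr7:19606217-19629438, Nfkbia at chr12:55489410-55492647, Nfkbie at chr17:45555703-45563169, Nfkbiz at chr16:55811375-55838899 and Tnfaip3 at chr10:19000910-19015657. In the table the subunits were identified as Rela ENSMUSG00000024927, Nfkb1 ENSMUSG00000028163, Rel ENSMUSG00000020275, Nfkb2 ENSMUSG00000025225 and Relb ENSMUSG00000002983. The inhibitors were identified as Nfkbia ENSMUSG00000021025, Nfkbie ENSMUSG00000023947, Nfkbiz ENSMUSG00000035356, Tnfaip3 ENSMUSG00000019850 and Tnip1 ENSMUSG00000020400.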

How the data were processed

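The authors aligned paired-end reads to mm10 with HISAT2 on the Galaxy platform, obtained raw gene counts and deposited them as TPM, 1 table for 12 libraries. The counting tool, annotation and strand setting are not given in the sources used here. Of 55401 gene identifiers, 55141 had a symbol in GENCODE M21. TPM multiplied by the GENCODE exon length came out as whole reads (tolerance 0.05) for 98.6% to 98.7% of values, which gave the depth. Whether a read pair was counted as 1 or 2 reads is not given, and 65.8% to 68.5% of counts under 20 reads were even. The recovered reads were used only in an added voom model, chosen after seeing the data.

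The 15026 genes that averaged 1 TPM or more entered limma 3.58.1 (R 4.3.3) on log2(TPM + 1), with all 12 libraries sharing 1 spread, eBayes with a trend and Benjamini-Hochberg adjustment over all genes in each comparison. Fold changes are on this scale and understate changes of low genes. A call needed an adjusted p below 0.05 and a log2 fold change beyond 0.5. Promoter motifs were searched with Python 3.11.15. The members and pathway lists were chosen with earlier results of these data known. Of each list, the 2 genes with the highest mean TPM and the 2 with the smallest unadjusted p in Rag2-/- against WT were named, with any gene called, and the 5 genes whose profile was most like that of the members. The fits were tested on simulated data. Alternatives were another pseudocount, filters, scaling, the 8 libraries compared alone, a replicate block, no trend, no fold limit and leaving out each library. Replicates are labelled biological, and p-values measure only the spread between these libraries. Same-numbered libraries of different hosts had correlated deviations of -0.09 to 0.03 (12 pairs), so the replicate numbers were not used as pairs.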

Additional observations from a re-analysis of the deposited data

Results flagged for a closer look

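Of 96 groups of 4 libraries checked (30 of the 10 genes and 66 of named pathway genes), 7 had a highest or lowest library whose gap to its neighbour took up more of the range than Dixon's 95% critical value allows, and chance gives about 1 in 20, or 4.8. Among the 10 genes, Nfkbiz in WT had 34.3 TPM in replicate 1 against 13.9 TPM in the next library (gap over range 0.8346). Relb in Rag2-/- had 4.16 TPM in replicate 2 against 3.10 TPM (0.8325). Tnip1 in NSG had 74.6 TPM in replicate 3 against 90.4 TPM in the next lowest (0.9098), and without this library its log2 fold change in NSG against WT turned from -0.05 to 0.02.

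Among the other pathway genes, Tank in WT was highest in replicate 4 (53.4 against 50.4 TPM, 0.8349) and Myd88 in NSG was highest in replicate 2 (133.9 against 129.0 TPM, 0.8394). Marcksl1 was lowest in WT replicate 3 (246 against 265 TPM, 0.8304) and in NSG replicate 3 (235 against 259 TPM, 0.9077). NSG replicate 3 was thus named for Tnip1 and for Marcksl1.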

How the results depend on the processing

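None of the 10 genes was called in any comparison under any alternative run, and none passed the F test in the alternatives that gave one. The number of genes called over the whole table moved more. For Rag2-/- against WT (221 genes) it was 114 with all genes above 0 tested, 420 with no fold limit, 355 with the 8 libraries alone and 47 to 326 without 1 library. For Rag2-/- against NSG (32) it was 14 with a pseudocount of 0.1, 7 with all genes above 0, 11 with median-ratio scaling, 6 with the 8 libraries alone, 18 without a trend, 71 with voom and 4 to 90 without 1 library (4 without Rag2-/- replicate 3, 90 without Rag2-/- replicate 4). For NSG against WT (0) it was 2 with all genes above 0 and 0 to 2 without 1 library. Other pathway genes called were 2 with no fold limit and 0 to 2 without 1 library in Rag2-/- against WT, and 0 to 3 in Rag2-/- against NSG, where Bcl3, Tlr2 and Ptges passed without Rag2-/- replicate 4 and Tlr2 and Cxcl10 without NSG replicate 3. The causes were not tested.

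With the replicate number as a block, 5 genes were called in Rag2-/- against NSG and none of the 10, and the adjusted p of Nfkbia in Rag2-/- against WT was 0.135. Over the other alternatives and single libraries left out, that adjusted p ran from 0.0206 to 0.210.

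Directions near 0 turned. With median-ratio scaling Nfkbiz in Rag2-/- against WT became -0.0089, with a median shift of all genes of -0.02. Without 1 library the log2 fold changes in Rag2-/- against WT ran from -0.075 to 0.29 for Relb, -0.18 to 0.39 for Nfkbiz and -0.26 to 0.13 for Tnfaip3. In Rag2-/- against NSG they ran from -0.0090 to 0.057 for Nfkb1, -0.0092 to 0.34 for Relb, -0.075 to 0.0011 for Nfkbie and -0.081 to 0.22 for Nfkbiz. In NSG against WT they ran from -0.31 to 0.11 for Relb, -0.059 to 0.11 for Rel, -0.040 to 0.026 for Nfkbie, -0.25 to 0.32 for Nfkbiz, -0.36 to 0.035 for Tnfaip3 and -0.076 to 0.023 for Tnip1. Over the 90 other pathway genes in Rag2-/- against WT, 55 to 62 were above 0 without 1 library, with medians of 0.07 to 0.10, and the target gene median stayed between -0.13 and -0.05, whereas against NSG it ran from -0.027 to 0.018. Depth limited Relb most, at 26 reads in its lowest library.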

Other observations

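In WT replicate 1, 6 of the 23 NF-kB target genes were the highest of the 12 libraries, as were Il1b, Cd14 and Zfp36 from the other lists. The following genes were chosen after their values were seen. Cxcl2, a neutrophil-attracting chemokine, was at 41.5 TPM there and between 0.409 and 4.44 TPM in the other 11 libraries, 19.7 times their median. Ptgs2, the inducible cyclooxygenase, was 5.19 times the median of the others, Il1b, the cytokine interleukin-1 beta, 4.18 times, and Cd14, a co-receptor for lipopolysaccharide, 1.98 times. The immediate early genes Ier3 and Junb were 1.92 and 1.82 times the median, and Zfp36 1.64 times. Other target genes were below the median of the others there, among them Gadd45b (0.80 times), Icam1 (0.90 times) and Clec4e (0.91 times). In the same library Nfkb1 (64.0 TPM) and Rela (117 TPM) lay within the range of the others.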
